A study of Mus musculus with 9 samples.

Results

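The epidermal growth factor (EGF) receptor Egfr and 4 of its ligands, Hbegf, Areg, Ereg and Tgfa, were followed through the cells of the adult mouse knee. These 5 genes were taken by symbol from the 54534 genes listed in each of 9 single-cell RNA libraries, and all 5 were found. Unique molecular identifiers (UMIs), which count captured RNA molecules, of Hbegf numbered 30611 in the kept cells, of Egfr 5449, of Ereg 1328, of Areg 867 and of Tgfa 68.

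Egfr is a receptor tyrosine kinase at the cell surface. Its ligands are made as membrane-anchored precursors that metalloproteases of the ADAM family cut free, so that a ligand can act on neighbouring cells or on the cell that made it. Ligand binding drives receptor dimerisation and signalling through the RAS-ERK cascade, which feedback proteins such as Errfi1 and the Sprouty family restrain. In joints this receptor is known for its part in keeping the articular surface and in the growth and matrix turnover of synovial fibroblasts.

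All mice carried Gdf5-Cre, a tdTomato (Tom) reporter and Pdgfrα-H2BGFP, and were 11-12 weeks old. Tom marks descendants of cells in which the Gdf5-driven Cre was active, which in the joint are those of the embryonic interzone, and the green fluorescent protein (GFP) marks cells in which the Pdgfrα promoter is on. Live cells of collagenase-digested synovial joints were sorted as Tom+ (Gdf5-lineage) or Tom-GFP+ (non-Gdf5-lineage Pdgfrα+). The steady state had 2 Tom+ libraries and 1 Tom-GFP+ library from naive mice. The injured state had 4 Tom+ and 2 Tom-GFP+ libraries, taken 6 days after an arthrotomy of the right knee with a scratch through the cartilage of the trochlear groove. The injured group therefore combines the surgery and the cartilage wound, and no library of arthrotomy alone was analysed here. The Tom+ libraries came from separate mice, and the Tom-GFP+ libraries from mice matched to some of these, without a label of which.

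The libraries held 2866464 to 15033902 UMIs, and 4788 of 5161 barcodes were kept. Median depth per kept cell was 8050.5 to 8647 UMIs in the steady state libraries and 12223 to 18567 in the injured ones, so sequencing depth and state ran together. The tdTomato transcript was found in 83.1 to 97.5% of cells of the Tom+ libraries and in 3.97 to 8.75% of cells of the Tom-GFP+ libraries. In the library of Tom-GFP+ injured replicate 2, the barcode at the 90th percentile held 82.3% mitochondrial UMIs, and 277 of its 424 barcodes were kept. Only 14 barcodes occurred in more than 1 library. The 3 steady state libraries and Tom+ injured replicate 1 were deposited with an older format of gene list than the other 5, so format and state could be set apart by 1 injured library only.

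Cells were assigned to classes by marker genes that include none of the 5 genes. Fibroblast-like synoviocytes (FLS, the Prg4+ Clic5+ cells of the synovial lining) numbered 724, and Thy1+ sublining fibroblasts 1952. The other classes were injury-induced fibroblast-like cells (527, all from injured libraries), cycling cells (235), tenocyte-like (189), osteoblast-like (178), chondrocyte-like (108), immune-like (108), Prg4+ Clic5- cells (98), mural-like (89), adipocyte-like (39) and endothelial-like cells (23), with 518 cells in no class. FLS had a median of 17423.5 UMIs per cell against 9679 in sublining fibroblasts. Of the adipocyte-like cells, 33 came from Tom+ injured replicate 4, and Mup7 and Cyp2f2 led their genes. Levels are given as CPM, the count of a gene per 1000000 UMIs that a class had in a library, over the libraries with at least 10 cells of the class, and n counts libraries. They compare 1 gene between classes or groups, not different genes with each other.

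Hbegf, the heparin-binding ligand, was concentrated in FLS. Of its UMIs, 88.5% lay in FLS, which were 15.1% of the cells. The mean level in FLS was 1879 ± 652 CPM (SD, n = 8), and in chondrocyte-like cells, next in order, it was 273 ± 208 CPM (n = 6). Cycling cells followed with 159 ± 65.7 CPM (n = 5), Prg4+ Clic5- cells with 81.7 ± 19.8 CPM (n = 4) and sublining fibroblasts with 52.7 ± 52.9 CPM (n = 9). Osteoblast-like cells at 14.9 ± 12.1 CPM (n = 5) and immune-like cells at 12.5 ± 11.6 CPM (n = 3) closed the order. These means, for Hbegf and the other genes, pool lineages and states, in which the classes differ. All 4 libraries with enough Prg4+ Clic5- cells, for example, were Tom+ injured.

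**Figure D1:**
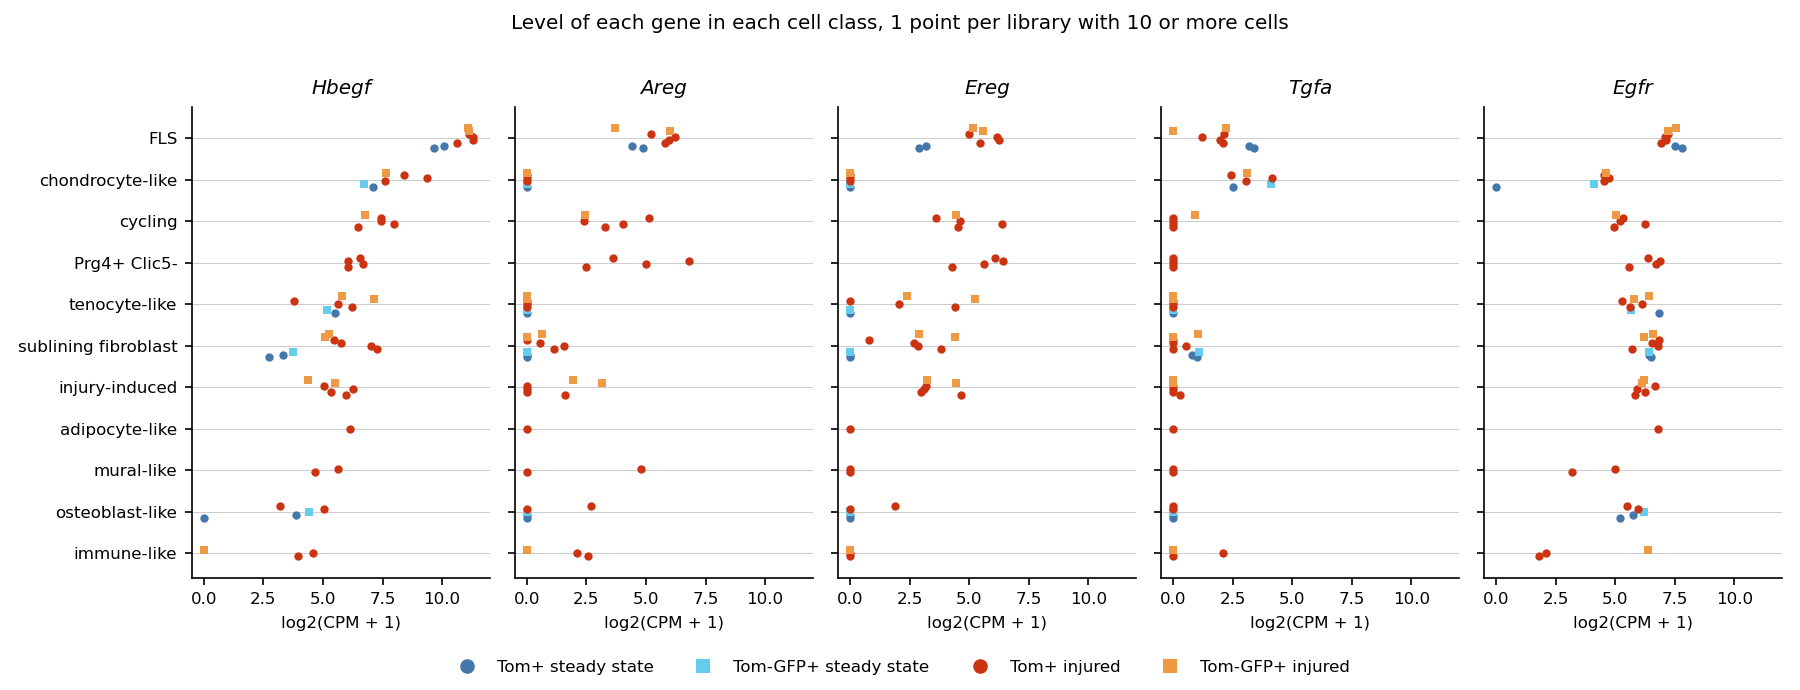
Each point is the level of a gene in 1 class of 1 library, as log2(CPM + 1) on the x axis, with cell classes on the y axis and colours for the 4 groups. Every FLS point of Hbegf lies to the right of every point of the other classes. The same holds for Egfr by a narrow margin, with 122 CPM as the lowest FLS point and 116 CPM, in Prg4+ Clic5- cells, as the highest other point. The points of Egfr overlap between the other fibroblast classes.

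The order of Hbegf was tested between neighbours in 1 fit over 56 class sums with the library as a block. FLS exceeded chondrocyte-like cells by 2.75 ± 0.36 on the log2 scale (fold change ± standard error, SE; adjusted p = 1.93e-08, by the quasi-likelihood F-test of edgeR after Benjamini-Hochberg correction), in a contrast where 32.0% of all genes tested passed. Chondrocyte-like cells exceeded cycling cells by 1.35 ± 0.39 (edgeR adjusted p = 0.0068), in a contrast where 29.7% of genes passed. Every later pair of neighbours, from cycling and Prg4+ Clic5- cells down to osteoblast-like and immune-like cells, missed the threshold of 0.05. In chondrocyte-like cells the steady state libraries gave 137 CPM (Tom+ replicate 2, 15 cells) and 104 CPM (Tom-GFP+, 12 cells), and the injured ones 193, 665 and 341 CPM in Tom+ replicates 1, 3 and 4 and 200.2 CPM in Tom-GFP+ replicate 1. These libraries had 11 to 18 cells each, and no test of injury was made in this class.

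FLS and Prg4+ Clic5- cells both hold Prg4, the lubricin gene of the joint surface, and differed in the level of Hbegf. It was above 0 in all 4 libraries of Prg4+ Clic5- cells, and FLS were higher by 5.10 on the log2 scale (edgeR adjusted p = 1.01e-10), where 5.06% of all genes passed. Ereg and Areg did not separate these classes, with adjusted p = 0.953 and 0.42 by the same edgeR test, and Egfr was 0.83 higher in FLS with adjusted p = 0.0583. Among cycling cells, the 37 with FLS markers held 460 CPM of Hbegf as a pool and the 198 without them 81.3 CPM. Only 1 library had 10 or more of the former, against 4 for the latter, and this difference was not tested.

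Areg encodes amphiregulin, a ligand that binds Egfr with low affinity. Its UMIs lay 76.8% in FLS. The level was 43.7 ± 22.5 CPM in FLS (SD, n = 8) and 39.2 ± 48.4 CPM in Prg4+ Clic5- cells (n = 4), where the libraries ran from 4.64 to 110 CPM. It was 0.456 ± 0.679 CPM in sublining fibroblasts (n = 9), and in chondrocyte-like and tenocyte-like cells no UMI was counted in any library. The gene lies at chr5:91139599-91148432 on the plus strand of GRCm38 (GENCODE vM21). The 100 bases before its start, from the promoter windows of RefSeq (GRCm38.p6, plus strand), are printed because most UMIs of this ligand lay in FLS. Capitals mark the cAMP-response letters TGACGTCA, the GC box GGGCGG and the TATA letters TATAAA:

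Areg, chr5:91139499-91139598: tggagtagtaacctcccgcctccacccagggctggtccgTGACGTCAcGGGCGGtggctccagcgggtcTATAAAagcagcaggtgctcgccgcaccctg

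TGACGTCA stood 61 to 54 bases before the start and TATAAA 31 to 26 bases before it. Searched on both strands in windows from 250 bases before to 50 bases after a gene's start, TGACGTCA was in 1.79% of 32851 promoter windows, TATAAA in 13.6%, GGGCGG in 35.7% and the AP-1 letters TGANTCA in 7.81%. TGANTCA was found in none of the windows of Areg, Tgfa and Egfr, the 3 of the 5 genes that had a window. These matches describe letters only.

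Ereg encodes epiregulin, a ligand of both Egfr and Erbb4. It lies 46.0 kb before Areg on the same strand (chr5:91074622-91093646), with no protein-coding gene between them, and the antisense gene Gm19610 overlaps it. Its level was 54.5 ± 27.9 CPM in Prg4+ Clic5- cells (SD, n = 4), 39.5 ± 25.3 CPM in FLS (n = 8) and 32.3 ± 29.0 CPM in cycling cells (n = 5). Within the Tom+ injured libraries alone, FLS were at 54.8 ± 21.3 CPM (n = 4), level with Prg4+ Clic5- cells. These 3 classes were not separated by the neighbour tests (edgeR adjusted p = 0.953 and 0.0914). Injury-induced fibroblast-like cells held 12.7 ± 7.70 CPM (n = 6) and sublining fibroblasts 5.81 ± 6.94 CPM (n = 9). With classes taken from clusters instead of markers, cycling cells exceeded injury-induced ones by 1.39 on the log2 scale (edgeR adjusted p = 0.0365). In that contrast 1830 of 12117 genes passed, and 46.1% of the cells of the injury-induced cluster were in that class by markers. In FLS thinned to 5000 UMIs each, Areg was seen in 26.2% of the 103 cells with an Ereg UMI and in 9.48% of the cells without, and the share was higher in the Ereg-holding cells in 7 of 8 libraries, Tom+ steady state replicate 1 being the exception with 1 such cell. No test was made of this, since cells of a library are not replicates.

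Tgfa, the classical transforming growth factor alpha, was close to undetected. It had 68 UMIs in 65 cells, 39 of them in FLS. Its highest class mean was 9.55 ± 5.60 CPM in chondrocyte-like cells (SD, n = 6), which rests on 8 UMIs, and FLS followed with 4.02 ± 3.22 CPM (n = 8). In the Tom+ steady state the order was the other way, with 8.80 ± 1.04 CPM in FLS (n = 2) and 4.72 CPM, from 1 UMI, in the chondrocyte-like cells of 1 library. The gene lies at chr6:86195223-86275719 on the plus strand.

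Egfr itself was spread broadly over the mesenchymal classes. Its level was 159 ± 32.7 CPM in FLS (SD, n = 8), 109 CPM in the adipocyte-like cells of 1 library, 88.5 ± 18.9 CPM in sublining fibroblasts (n = 9), 87.6 ± 30.7 CPM in Prg4+ Clic5- cells (n = 4) and 72.3 ± 16.2 CPM in injury-induced fibroblast-like cells (n = 6). Tenocyte-like cells held 65.0 ± 26.0 CPM (n = 7), osteoblast-like cells 52.8 ± 14.3 CPM (n = 5), cycling cells 42.4 ± 18.7 CPM (n = 5), immune-like cells 29.5 ± 46.1 CPM (n = 3), mural-like cells 19.6 ± 16.3 CPM (n = 2) and chondrocyte-like cells 18.1 ± 9.42 CPM (n = 6). The immune-like libraries were at 2.43, 3.26 and 82.7 CPM, the last from 8 UMIs in 1 of 12 cells of Tom-GFP+ injured replicate 2. Between neighbours in this order, with classes from markers, only cycling against immune-like cells passed, with 1.64 ± 0.56 on the log2 scale (edgeR adjusted p = 0.0183) where 33.9% of genes passed. With classes from clusters that difference was 4.08 (edgeR adjusted p = 3.9e-08), and 4 more pairs passed. Sublining fibroblasts exceeded injury-induced cells by 0.49 (edgeR adjusted p = 0.0074), and osteoblast-like cells exceeded cycling cells by 0.75 (edgeR adjusted p = 0.000794). Injury-induced cells were below tenocyte-like cells (-0.49) and immune-like below mural-like cells (-2.71), with edgeR adjusted p = 0.0406 and 0.0135. In these cluster contrasts 1147 to 4065 of 12117 genes passed. Some clusters were mixed. By markers, the class that named the cluster held 46.1% of injury-induced, 44.8% of osteoblast-like and 35.4% of tenocyte-like cluster cells. Tested directly, with classes from markers, FLS exceeded chondrocyte-like cells by 2.99 ± 0.38 (edgeR adjusted p = 7.39e-09). They also exceeded immune-like (3.35), mural-like (3.17), cycling (1.71), osteoblast-like (1.55), tenocyte-like (1.12), injury-induced (0.95) and sublining cells (0.65), with edgeR adjusted p of 0.000748 or less. In these contrasts 2285 to 3999 of 11547 genes passed. FLS did not differ by this test from adipocyte-like (edgeR adjusted p = 0.662) or Prg4+ Clic5- cells (0.0583). The receptor gene lies at chr11:16752203-16918158 on the plus strand, overlapped by the antisense gene Egfros on the minus strand. Counts per gene were used as deposited, and the reads behind them were not examined. The 100 bases before its start (RefSeq, GRCm38.p6, plus strand) are shown beside those of Areg as the window of a gene found in most classes, with the GC box on the other strand, CCGCCC, in capitals:

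Egfr, chr11:16752103-16752202: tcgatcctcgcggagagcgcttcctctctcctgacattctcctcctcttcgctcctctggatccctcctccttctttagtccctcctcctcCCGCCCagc

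The GC box stood 9 to 4 bases before the start, and no TATAAA or TGACGTCA was in the window.

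FLS and sublining fibroblasts, the lining and the tissue beneath it, were compared within the 6 Tom+ libraries. All 5 genes were higher in FLS (5 of 5 called), against 31.9% of all genes tested that passed in either direction. Hbegf was higher by 5.11 ± 0.39 on the log2 scale, with edgeR adjusted p = 3.6e-07. Areg was higher by 6.08 ± 0.32 (edgeR adjusted p = 1.26e-08) and Ereg by 3.18 ± 0.34 (edgeR adjusted p = 8.04e-06). Tgfa differed by 3.36 ± 0.58 (edgeR adjusted p = 0.000496). In Tom+ sublining fibroblasts, Areg had 0 UMIs in the steady state and 7 after injury, and Tgfa had 4 and 1. The sizes of these differences for Areg and Tgfa therefore rest on few counts. The receptor showed the smallest of the 5 differences, 0.60 ± 0.13 (edgeR adjusted p = 0.00342). Each ligand and the receptor were higher in the FLS of all 6 libraries in CPM, and how many of all genes were so was not counted. Hbegf was at 808 to 2505 CPM in FLS and 5.57 to 155 CPM in sublining fibroblasts.

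Of the other EGF family ligands, Btc (betacellulin) was the only 1 of 7 with enough UMIs to test, and it was higher in FLS by 3.14 ± 0.24 (edgeR adjusted p = 3.6e-07). It lies on chromosome 5 as well, 209 kb beyond Areg. Btc held 25.4 and 30.2 CPM in steady state FLS and 29.0 to 49.9 CPM in injured Tom+ FLS, against 1.90 to 5.71 CPM in Tom+ sublining fibroblasts. Egf, Epgn and Nrg1 to Nrg4 had 3 to 66 UMIs each. Of the other receptors, Erbb2 had 379 UMIs and did not pass, Erbb3 had 44, and Erbb4 had none.

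Among 9 genes for ligand shedding and ligand partners, 8 were tested, 2 were higher in FLS and 1 was lower, and their median log2 difference was 0.07 beside -0.01 over all genes. The sheddase Adam10 was higher by 0.95 ± 0.12 (edgeR adjusted p = 3.39e-05) and Rhbdf2, an iRhom that carries Adam17 to the surface, by 1.39 ± 0.42 (edgeR adjusted p = 0.0241). Adam12, which is also a marker of the injury-induced class, was lower in FLS by 4.23 on the log2 scale.

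Receptor inhibitors split, with 2 of 10 higher in FLS, 2 lower and a median of -0.19. Errfi1, the cytoplasmic inhibitor that binds the kinase domain, was higher in FLS by 2.80 ± 0.12 (edgeR adjusted p = 2.1e-09). It reached 385 and 587 CPM in steady state Tom+ FLS and 448 to 1007 CPM in injured Tom+ FLS, and 46.1 to 138 CPM in Tom+ sublining fibroblasts. The phosphatase Ptpn1 was 1.06 ± 0.12 higher. The ubiquitin ligase Cblb (log2 fold change -1.38 ± 0.27) and the transmembrane inhibitor Lrig3 (-1.99 ± 0.26) were lower, all with edgeR adjusted p of 0.00136 or less.

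Of 15 ERK feedback and target genes, 12 were tested, and Etv5 was higher in FLS (1.28 ± 0.27) while Spry1 (-3.25 ± 0.35), Myc (-1.46 ± 0.21) and Ier3 (-1.20 ± 0.17) were lower, with edgeR adjusted p of 0.00252 or less. The list's median was -0.12. Of 12 genes that rise when tissue is dissociated, Hspa1a (0.83) and Hspa1b (0.67) were higher in FLS and Atf3 (-0.93) and Jun (-0.90) lower. Their median was -0.34. This list holds immediate early genes and the heat shock genes Hspa1a and Hspa1b, and is named for the former below.

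Injury was compared with the steady state first in Tom+ FLS, which had 21 and 34 cells in the steady state libraries and 112, 199, 167 and 123 cells in the injured ones. Hbegf and Ereg rose, and Areg, Tgfa and Egfr did not pass the test. In this contrast 4.24% of all genes passed.

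Hbegf in FLS was at 808 and 1071 CPM in the steady state and at 1565, 2486, 2505 and 2234 CPM after injury. All 4 injured libraries lay above both steady state libraries, as did those of 16.7% of all genes tested. The mean rose 2.34-fold, from 939 ± 186 CPM (SD, n = 2) to 2197 ± 440 CPM (n = 4), and the fitted log2 fold change was 1.27 ± 0.23 (edgeR adjusted p = 0.0148). Injured replicate 1, the library in the older gene list format, was the lowest of the 4. With the format as a block the value was 0.77 with adjusted p = 0.175, and without steady state replicate 1 or 2 it was 1.11 (adjusted p = 0.155) or 1.55 (adjusted p = 0.0561), so the call rests on both steady state libraries and on libraries in the newer format.

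**Figure D2:**
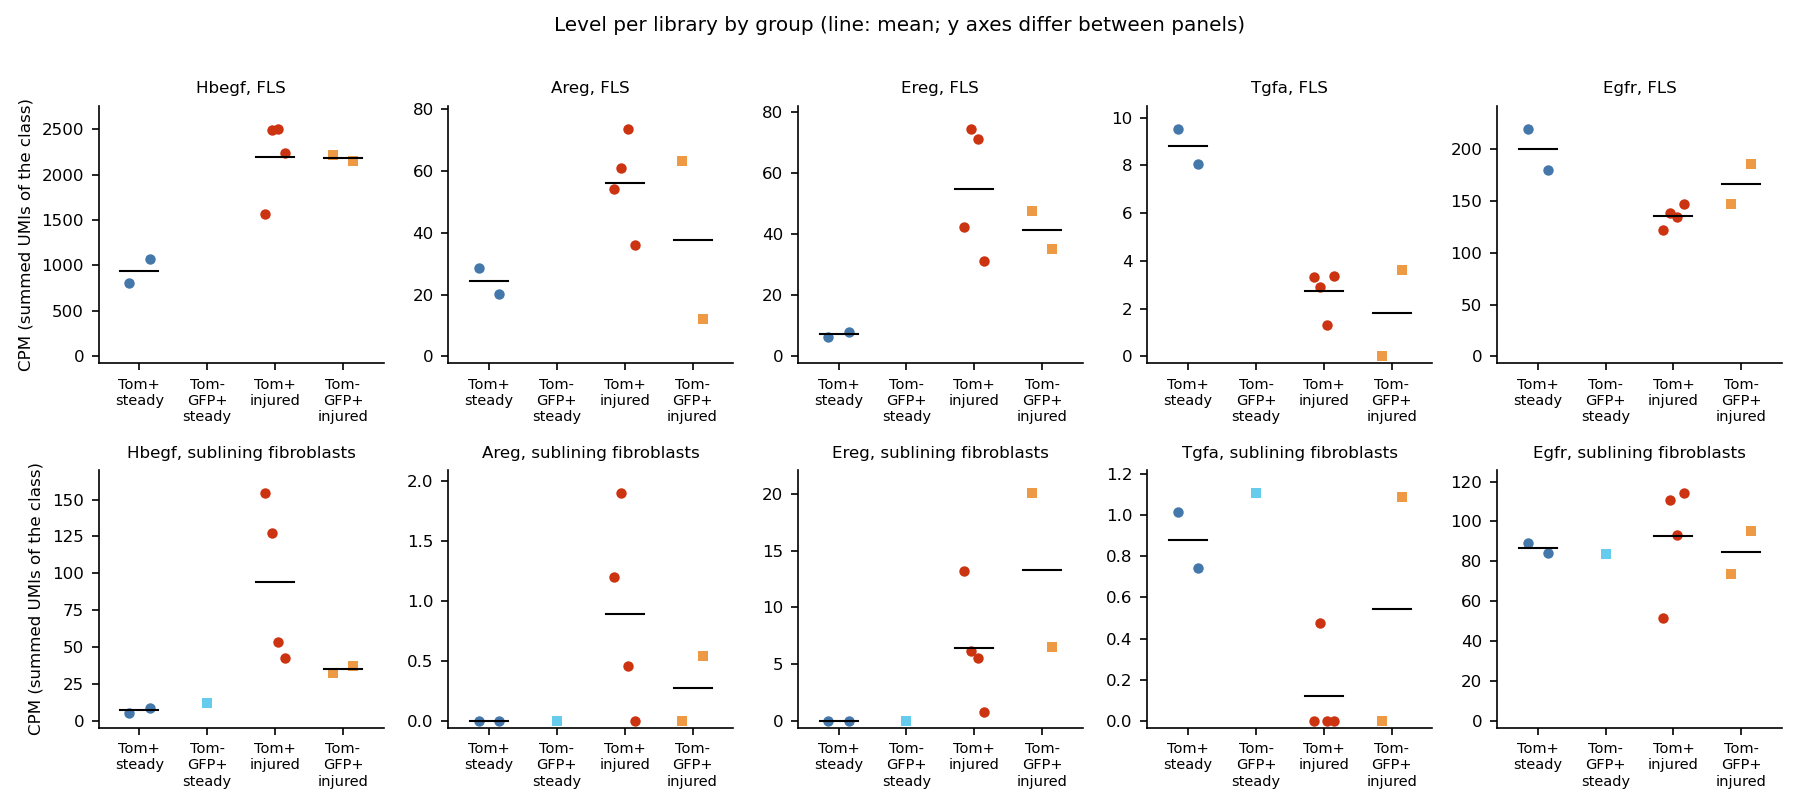
The y axes give CPM per library in FLS (top row) and sublining fibroblasts (bottom row) for the 5 genes, the x axis gives the 4 groups, points are libraries and lines are means of groups with 2 or more libraries. Hbegf in FLS runs from 808 to 1071 CPM in the steady state and from 1565 to 2505 CPM in injured Tom+ libraries, and Ereg in sublining fibroblasts is at 0 in all steady state libraries.

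In single cells, the rise of Hbegf was larger at the median than in the mean. In the median FLS there were 2.44 and 2.00 Hbegf UMIs per 10000 UMIs in the steady state, and 12.6, 24.1, 22.6 and 18.7 in the injured Tom+ libraries. The 75th percentile was 17.5 and 15.4 in the steady state and 23.4 to 39.8 after injury. Both steady state medians lay above the 10th percentile (0 to 1.68) and below the 25th (3.10 to 8.10) of each injured Tom+ library. In the steady state, 63.8% of the 845 Hbegf UMIs of the 58 steady state FLS came from 10 cells. For Egfr the medians were 1.96 and 1.75 UMIs per 10000 in the steady state and 1.06 to 1.39 in the injured Tom+ libraries.

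**Figure D3:**
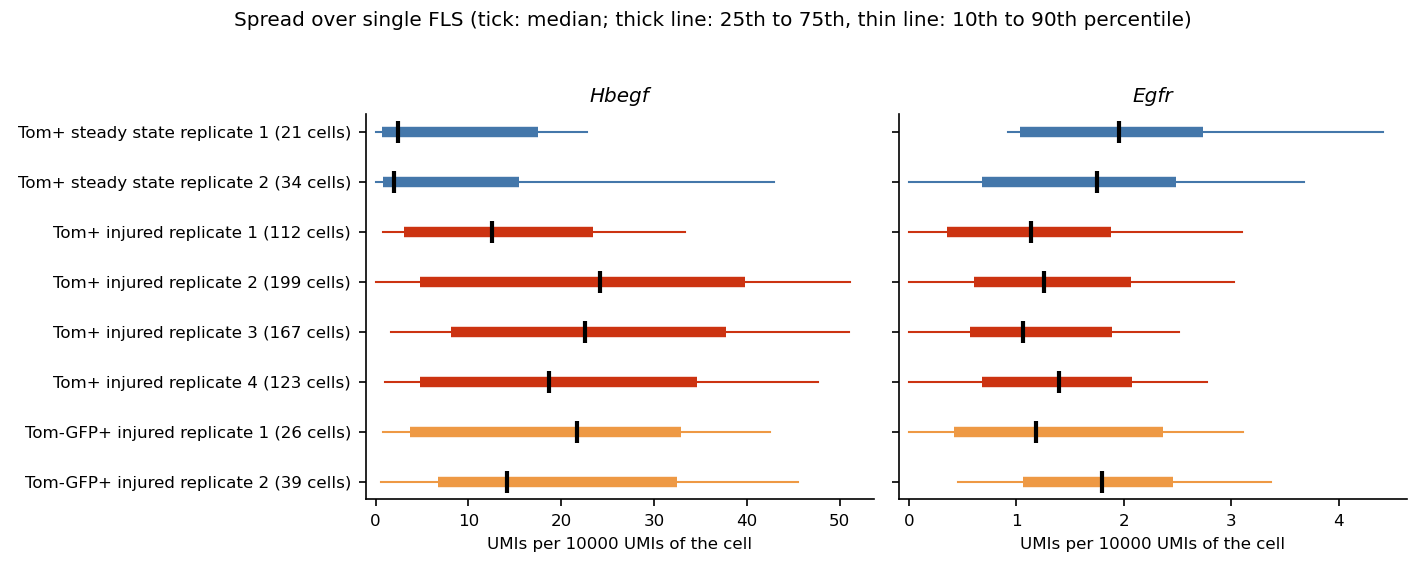
For Hbegf and Egfr, the x axis gives UMIs per 10000 UMIs of a cell and each row is the FLS of 1 library. Ticks are medians, thick lines the 25th to 75th and thin lines the 10th to 90th percentile over cells. The median of Hbegf is 2.00 to 2.44 in steady state libraries and 12.6 to 24.1 in injured Tom+ libraries.

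Ereg in FLS was at 6.36 and 8.07 CPM in the steady state, from 6 UMIs in all, and at 42.4, 74.5, 71.2 and 31.4 CPM after injury. All injured libraries lay above both steady state libraries, as did those of 16.7% of all genes tested. The mean rose 7.60-fold, with a log2 fold change of 2.94 ± 0.60 (edgeR adjusted p = 0.0215). The call was lost with the format as a block (2.54, adjusted p = 0.128), in cells thinned to 5000 UMIs (1.74, adjusted p = 0.193) and without steady state replicate 1 (2.84, adjusted p = 0.165) or 2 (3.21, adjusted p = 0.157), and the direction was the same in each.

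Areg in FLS was at 28.6 and 20.2 CPM in the steady state and at 54.3, 61.0, 73.8 and 36.2 CPM after injury. The 4 injured libraries lay above the others, as did those of 16.7% of all genes tested. The log2 fold change of 1.30 ± 0.57 missed the threshold (edgeR adjusted p = 0.217). Tgfa was at 9.54 and 8.07 CPM in the steady state and at 3.33, 2.89, 1.31 and 3.38 CPM after injury, with a log2 fold change of -1.63 ± 0.80 (edgeR adjusted p = 0.273) that rests on 7 steady state UMIs. Egfr was at 219 and 179 CPM and then at 122, 138, 134 and 147 CPM, with a log2 fold change of -0.50 ± 0.18 (edgeR adjusted p = 0.137). Both had all 4 injured libraries below the steady state ones, as had 19.2% of all genes tested.

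Among the pathway lists in this contrast, no gene rose and 4 fell. The inhibitors Socs3 and Lrig1 fell by 2.03 and 1.52 on the log2 scale (2 of 9 tested, median -0.15), with edgeR adjusted p = 0.0138 and 0.0488. The ERK target Egr1 fell by 1.18 (1 of 10 tested, median -0.08) and the immediate early gene Fosb by 1.31 (1 of 12, median -0.61), with edgeR adjusted p = 0.0241 and 0.0219. The median over all genes was 0.00. None of the 6 shedding genes tested nor Btc passed. Immediate early genes together summed to 7126 and 7735 CPM in steady state FLS and to 3278 to 7261 CPM in injured Tom+ FLS. Markers of tenocytes summed to 356 and 1038 CPM in steady state FLS and to 31.7 to 210 CPM in injured Tom+ FLS. The 10 immune markers summed to 0 to 3.18 CPM in steady state Tom+ FLS and to 1.43 to 31.8 CPM in injured ones. Ptprc and Cd52 were at 0 in both, and 8 of the 10 had a UMI after injury. The part of these markers, of depth and of the gene list format in the changes of the ligands was not tested.

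In Tom+ sublining fibroblasts, Hbegf and Ereg were also higher after injury, and Egfr did not pass the test. Here 12.7% of all genes passed. Areg and Tgfa were left out of the fit for low counts.

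Hbegf in Tom+ sublining fibroblasts was at 5.57 and 8.91 CPM in the steady state and at 155, 127, 53.3 and 42.9 CPM after injury. All 4 injured libraries lay above both others, as did those of 18.8% of genes. The mean rose 13.05-fold and the log2 fold change was 3.63 ± 0.57 (edgeR adjusted p = 0.00284). The UMIs were uneven between cells, with 48.4% of the 905 Hbegf UMIs of all injured sublining fibroblasts in 10 cells and up to 99 in 1 cell. A Hbegf UMI was seen in 4.10% of 879 steady state and 21.6% of 1073 injured sublining fibroblasts, at median depths of 8311 and 11469 UMIs, and in the same cells thinned to 5000 UMIs the libraries gave 1.97 to 4.27% and 9.84 to 17.2%. In the steady state the share was 6.93% in osteoblast-like cells (median 6205 UMIs) and 30.8% in 13 mural-like cells (5158 UMIs). In injured libraries it was 15.6% in osteoblast-like cells (median 9683 UMIs), 25% in mural-like cells (8929 UMIs), 9.71% in immune-like cells (8462 UMIs) and 55% in 20 endothelial-like cells (17543.5 UMIs). In both states the share of sublining fibroblasts was below that of at least 1 other class, and in injured libraries it was above those of osteoblast-like and immune-like cells. The classes differ in depth and may express Hbegf themselves, so these shares cannot tell expression from background.

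FLS markers moved with this difference. The 6 FLS markers summed to 569 and 576 CPM in steady state Tom+ sublining fibroblasts and to 554 to 2663 CPM in injured ones, and the 2 libraries with most Hbegf, injured replicates 1 and 2, had 2105 and 2548 CPM of Prg4. A UMI of Clic5, Tspan15, Htra4 or Col22a1 was held by 18.7 and 24.1% of the cells in the steady state and by 32.0 to 37.9% after injury. Without those cells, a choice made after the data were seen, Hbegf was at 5.13 and 10.9 CPM in the steady state and at 82.8, 26.1, 27.9 and 41.2 CPM after injury. The log2 fold change fell to 2.38 and still passed (edgeR adjusted p = 0.00981).

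**Figure D4:**
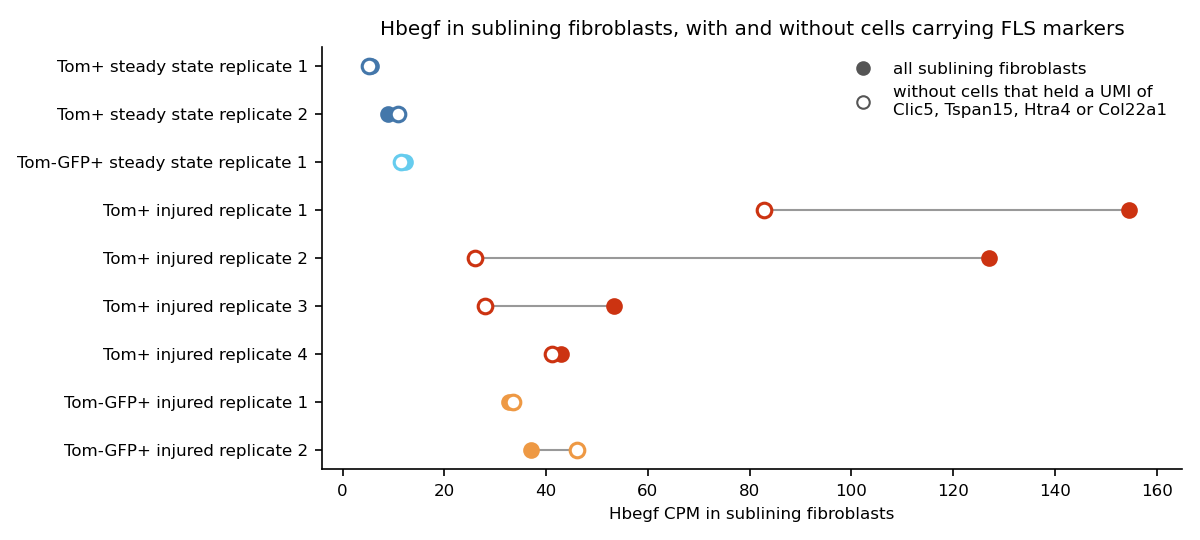
Hbegf CPM of sublining fibroblasts on the x axis, 1 row per library, for all cells (filled) and for cells without a UMI of 4 FLS markers (open). Tom+ injured replicate 2 moves from 127 to 26.1 CPM, and all injured libraries remain above the steady state libraries.

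Ereg had no UMI in the 230 and 311 sublining fibroblasts of the Tom+ steady state libraries and was at 13.2, 6.19, 5.52 and 0.759 CPM after injury. Over all 879 steady state sublining fibroblasts, the count of 0 allows a share of up to 0.341% of cells with a UMI, and 3.54% of the injured ones had one. The mean was at least 9.98-fold higher after injury, taken against 3 UMIs over the steady state group, with edgeR adjusted p = 0.0481. That p is close to the threshold and was above it under 5 other settings, and without either steady state Tom+ library (adjusted p = 0.169 and 0.227), the Tom-GFP+ steady state library (0.0526) or Tom+ injured replicate 2 (0.0847) or 3 (0.0819). The injured Tom+ sublining fibroblasts held 49 Ereg UMIs. Of the 112 in injured sublining fibroblasts of both lineages, 67.0% lay in 10 cells. No Ereg UMI was found in 103 immune-like cells of the injured libraries, which allows a share of up to 2.91%.

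Egfr in Tom+ sublining fibroblasts was at 89.2 and 84.2 CPM in the steady state and at 51.5, 111, 93.3 and 114 CPM after injury. The injured libraries spanned the steady state values, and the log2 fold change of 0.09 ± 0.28 gave edgeR adjusted p = 0.877. The value of Egfr was -0.78 with the format as a block and -0.24 with a replicate block. Areg had no UMI in the steady state and 7 in injured Tom+ sublining fibroblasts. Tgfa had 4 UMIs and 1, and its 4 injured libraries lay below both steady state ones, as did those of 18.5% of genes.

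The genes around the receptor that passed here were all higher after injury. They were Adam12 (4.14 ± 0.55, a marker of the injury-induced class) and the ligand partner and hyaluronan receptor Cd44 (1.92 ± 0.38) of 7 shedding genes, Ptpn1 (1.32 ± 0.31) of 10 inhibitors and Fosl1 (1.93 ± 0.56), an AP-1 subunit, of 13 ERK genes. Their edgeR adjusted p were 0.00133, 0.00906, 0.0203 and 0.0453. The medians of these lists were 0.14, -0.09 and -0.12, beside 0.00 over all genes. None of the 12 immediate early genes passed.

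In Tom-GFP+ sublining fibroblasts, with 1 steady state library against 2 injured, the lone library was assumed to vary like the others and 3.88% of genes passed. Hbegf was at 12.2 CPM and then at 32.7 and 37.0 CPM, 2.86-fold in the mean, and missed the threshold (1.51 ± 0.73, edgeR adjusted p = 0.317). Ereg had no UMI in 338 cells and was at 20.1 and 6.54 CPM after injury, at least 12.0-fold higher (edgeR adjusted p = 0.0923). Egfr was at 83.9 CPM and then 73.6 and 95.3 CPM (0.01 ± 0.40, edgeR adjusted p = 0.997). Adam12 rose by 2.80 ± 0.58 (edgeR adjusted p = 0.0262, 1 of 7 tested) and Spry1 fell by 2.03 (edgeR adjusted p = 0.0446, 1 of 13), and none of 10 inhibitors and 12 immediate early genes passed.

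Whether injury moved the genes differently in the lineages was tested by an interaction term in sublining fibroblasts, which no gene passed (0.0% of 11625 by edgeR, with 274 under 0.05 before adjustment, while DESeq2 called 3). The term of Hbegf was 2.12 ± 0.91, with adjusted p = 1.00 by edgeR, and 0.65 without the cells that held FLS markers. The Egfr term was 0.08 ± 0.49 by edgeR, adjusted p = 1.00. For Ereg it could not be estimated, since both steady state groups were at 0.

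Between the lineages after injury, none of the genes passed in FLS or in sublining fibroblasts. FLS were fewer in Tom-GFP+ libraries, with 26 and 39 cells, and the Tom-GFP+ steady state library had only 3 FLS and entered no FLS test. Hbegf was at 2212 and 2154 CPM in Tom-GFP+ injured FLS, inside the Tom+ range of 1565 to 2505 CPM, with a difference of 0.02 on the log2 scale and bounds of -0.40 and 0.44 at 2 SE. Only 1 of 9530 genes (0.0105%) passed in this contrast, with 340 at an unadjusted p under 0.05. Ereg was at 47.5 and 35.1 CPM (bounds -0.28 and 1.20) and Egfr at 146 and 185 CPM (bounds -0.64 and 0.05). Areg was uneven, at 63.3 and 12.1 CPM (bounds -0.22 and 1.69). In injured sublining fibroblasts, where 0.0258% of genes passed, Hbegf was 1.46 ± 0.47 higher in Tom+ libraries (edgeR adjusted p = 0.555), and 0.21 higher without the cells that held FLS markers. Ereg differed by -1.13 ± 0.69 and Egfr by 0.19 ± 0.29 (edgeR adjusted p = 1.00 for both).

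Genes whose levels ran most like those of each member were read over 46 class sums with at least 20 cells, from 11 classes of 9 libraries, as Pearson's r of log2(CPM + 1) and as a description only, since sums of a library share its depth and preparation. For Hbegf they were Pfdn1 (0.91), Trappc4, Tmem196, Ugp2 and Psmd8 (0.85). For Areg they were Tmem196 (0.76), Vapa, Galnt7, Bend6 and Hbegf (0.73), and for Ereg Higd1a (0.87), Rer1, Bend6, Prkcsh and Trappc4 (0.78). For Egfr they were Ltbp3 (0.88), Itih5, Epdr1, Mrc2 and Npdc1 (0.85). Hbegf was the only member in the list of another, and Egfr shared no gene with any ligand.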

How the data were processed

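The deposited values are raw UMI counts per gene and cell barcode, made by the authors with Cell Ranger (version 3.0.2 in 5 file headers) against GRCm38.p6 from 10x Genomics 5' libraries sequenced on the NextSeq 500, for barcodes already called as cells. Cells with fewer than 500 genes or 1000 UMIs, or with more than 10% of UMIs from mitochondrial genes, were removed. Scrublet marked 52 doublets, which were kept in the main analysis. Cells were gated by how many markers of a class they held, with numbers set after marker counts were seen. Of the cells, 1106 passed more than 1 gate and took the first in a set order. Counts were summed per class and library (at least 10 cells) and tested with edgeR 4.0.16 (TMM, low-count filter, quasi-likelihood F-test, Benjamini-Hochberg, threshold 0.05) in R 4.3.3, and SE was derived from the F statistic. DESeq2 1.42.0 and classes by Seurat 5.3.0 clusters were alternatives. Fits were tested on simulated data. Promoter sequences are those of RefSeq, and positions those of GENCODE vM21. Deviations of same-numbered samples from their group means correlated at 0.036 to 0.10. The groups are too small for this to show whether replicate numbers pair the samples. Members and gene lists were chosen with earlier results of these data known, and other genes were named as the members of a list that passed, at most 4 with the highest mean CPM. Limits from counts of 0 (3 UMIs) cover counting error only.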

Additional observations from a re-analysis of the deposited data

Results flagged for a closer look

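The highest and lowest of the 4 Tom+ injured libraries were compared with the rest by Dixon's ratio in 23 combinations of gene and class, and 5 stood apart. Chance flags about 1 in 20 groups, but this rate does not hold for 3 of the 5, in which all other libraries were at 0 and any UMI gives the highest ratio. Ereg in injury-induced fibroblast-like cells was at 24.0 CPM in replicate 1 (105 UMIs, 191 cells) and at 6.81 to 8.22 CPM in the others. Areg in the same cells was at 2.06 CPM in replicate 1 (9 UMIs) and at 0 in the others. Ereg in cycling cells was at 83.4 CPM in replicate 2 (81 UMIs, 44 cells) and at 11.1 to 23.4 CPM in the others. Tgfa stood apart by 1 UMI each in injury-induced fibroblast-like cells of replicate 1 (0.229 CPM) and in sublining fibroblasts of replicate 2 (0.476 CPM), with no UMI in the other libraries.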

How the results depend on the processing

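Of 499 alternatives for 36 results on the 5 genes, 443 counted as unchanged, some where the setting could not alter FLS fits. The differences between FLS and sublining fibroblasts passed under every alternative that gave a value, also when single libraries were left out (Hbegf 4.84 to 5.53, Areg 5.84 to 6.78, Ereg 2.94 to 3.84, Tgfa 3.13 to 3.56 in the 4 of 6 fits that tested it, and Egfr 0.51 to 0.69 on the log2 scale). Steady state FLS (21 and 34 cells) and the gene list format limit the injury results, and depth limits Tgfa, and Areg outside FLS. Where a value changed, the cause was not tested unless the setting itself removes cells, genes or samples.

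The rise in Tom+ FLS lost its call with the gene list format as a block (Hbegf 0.77, Ereg 2.54) and for Ereg in thinned cells (1.74), and without single libraries the values ran from 1.11 to 1.55 for Hbegf and from 2.72 to 3.21 for Ereg. Both calls were lost without either Tom+ steady state library. Areg passed there without a filter on low counts (1.38). The Ereg rise in Tom+ sublining fibroblasts had adjusted p = 0.0642 with a stricter gate, 0.158 with classes by cluster, 0.0512 without the highest Scrublet scores, 0.105 in thinned cells, 0.0522 without cells that held FLS markers (added after the data were seen), and 0.0171 to 0.227 without single libraries. In Tom-GFP+ sublining fibroblasts it passed with DESeq2 (0.0443) and without the filter (1.36e-07), and ran from 0.0247 to 0.287 without single libraries, below the threshold without Tom+ injured replicate 1 or 4 (0.0417). Without the filter, Hbegf passed in Tom-GFP+ sublining fibroblasts (1.54), in the interaction (2.07) and between the lineages in injured sublining fibroblasts (1.44).

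No value that changed sign passed the threshold. In injured FLS between the lineages these were Ereg in thinned cells (-0.0852), and Hbegf with a stricter gate (-0.0441), without the highest Scrublet scores (-0.10) and with the replicate block (-0.14). Without single libraries Hbegf ran from -0.0525 to 0.16, Areg from -0.10 to 2.21 and Tgfa from -0.44 to 5.20. Egfr turned in Tom+ sublining fibroblasts with the replicate block (-0.24) and the format block (-0.78) and ran from -0.0675 to 0.29 without single libraries. In Tom-GFP+ ones it was -0.0314 with a stricter cell filter, -0.0278 with a stricter gate, -0.0248 without the highest Scrublet scores and -0.0379 in thinned cells, and ran from -0.19 to 0.19. The Egfr interaction was -0.0390 with classes by cluster and ran from -0.10 to 0.28. In injured sublining fibroblasts between the lineages, Ereg was 0.15 in thinned cells and Egfr -0.0938 with the replicate block.

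The replicate block, for numbers not known to pair the samples, changed no call of a member. Hbegf was 1.17 and Ereg 3.07 in Tom+ FLS, and Hbegf between the lineages in sublining fibroblasts was 2.02 (edgeR adjusted p = 0.0508). The block moved the genes called in Tom+ sublining fibroblasts from 1480 to 771. It could not be fitted for the Tom-GFP+ injury contrast and the interaction. In cells thinned to 5000 UMIs, the share of FLS with a UMI was 83.7% for Hbegf, 11.9% for Areg, 14.5% for Ereg, 1.12% for Tgfa and 49.7% for Egfr, against 92.4, 21.8, 29.7, 4.85 and 84.7% unthinned.

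Genes called moved by more than 1.5 times under some settings. FLS against sublining fibroblasts gave 3595 and, without the library block, 2001. Injury in Tom+ FLS gave 404, with 1131 without the filter, 169 in thinned cells and 98 with the format block, and 43 to 609 without single libraries. Injury in Tom+ sublining fibroblasts gave 2252 without the filter and 430 to 1832 without single libraries. In Tom-GFP+ ones 451 genes became 1268 without the filter, 221 with a stricter gate, 72 with classes by cluster and 51 to 932 without single libraries. The interaction gave 0, with 3 by DESeq2, 63 without the filter, 1 with the format block and 0 or 1 without single libraries. Between the lineages, FLS gave 1, with 5 by DESeq2, 82 without the filter and 6 with the replicate block, and sublining fibroblasts gave 3, with 31, 286 and 5 in the same order and 23 in thinned cells, and 2 to 40 without single libraries.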

Other observations

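The gene most like Hbegf across class sums, Pfdn1, is also the next protein-coding gene on 1 side of it on chromosome 18 of GRCm38 in GENCODE vM21, 50.4 kb away. On the other side Slc4a9 lies closer, at 12.3 kb. Beyond Pfdn1, at 578 bases, lies Cystm1, which led the genes of FLS outside the gate. This was noticed after the values were seen. Pfdn1, a subunit of the prefoldin chaperone, was at 207 to 387 CPM in FLS and at 91.3 to 162 CPM in sublining fibroblasts, over the libraries with at least 10 cells of the class. Cystm1 was at 244 to 460 CPM in FLS and at 1.48 to 5.17 CPM in sublining fibroblasts. Slc4a9 had no UMI in the FLS or sublining fibroblasts of those libraries.

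Among sublining fibroblasts, 37 cells with markers of the F1 subset (Anxa8, Slurp1 and Ociad2) held 386 CPM of Hbegf as a pool, with a UMI in 27.0% of them, against 24.4 CPM in 243 cells of the F2 subset and 29.4 CPM in 488 cells of the F4 subset. Only 1 library had 10 or more F1 cells, and Hbegf was at 0 in it.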
